A study of Mus musculus with 8 samples.

Results

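The 10 genes described here are the core transcription factors of heart muscle: Gata4, Gata6, Nkx2-5, Tbx5, Tbx20, Mef2a, Mef2c, Mef2d, Hand2 and Srf. They were chosen by name as factors with a known role in the heart, with earlier results of these data known, out of 50599 records counted in the series, and all 10 were found and passed the low-count filter of the test. The data are RNA-seq of whole hearts from 8 male mice of 12 weeks of age on a C57BL/6N background, 1 library for each animal. The 4 knockout animals carried loxP-flanked Lrpprc alleles together with a Cre recombinase active in heart and skeletal muscle. The 4 controls, called wildtype here after their labels, carried the same loxP-flanked alleles without Cre. LRPPRC is a mitochondrial RNA-binding protein that stabilises mitochondrial mRNAs. The promoter that drives Cre is not given in the sources used here. The comparison asks how the RNA of these nuclear factors differed between hearts with and without LRPPRC.

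These factors bind DNA near heart muscle genes and near one another, and several act as one complex. GATA4, NKX2-5 and TBX5 bind each other and activate genes such as Nppa, while MEF2 proteins and serum response factor (SRF) belong to the MADS-box family and respond to calcium, histone deacetylases and actin dynamics. HAND2 is a basic helix-loop-helix factor needed for the right ventricle, and TBX5 is best known for its roles in the atria, the conduction system and the left ventricle.

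The targeted gene was lower in every knockout library. Lrpprc had 3665 ± 216 normalised counts (SD, n = 4) in wildtype and 577 ± 48.6 in knockout hearts, a log2 fold change of -2.67 (SE 0.1, DESeq2 adjusted p = 3.77e-153). Normalised counts are read counts divided by a size factor for each library and corrected for transcript length. Library totals were 35218460 to 47743316 counts in wildtype and 38128251 to 45062350 in knockout hearts. Mitochondrial rRNA took 44.0 to 46.9% of wildtype and 65.6 to 67.8% of knockout counts, so how the libraries are scaled sets the level of every other gene. Knockout replicate 3 stood apart along principal component 2 (12.4% of the variance), at 38.7 against -20.3 to -11.9 for the other knockout libraries, and the fold changes of the 10 factors are also given without it. Markers of heart muscle were abundant in every library, with summed normalised counts of 7 markers between 2096000 and 2325000 in wildtype and between 1305000 and 1611000 in knockout hearts, and no marker was at 0.

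Promoters of 7 of the 10 genes were matched by symbol in the RefSeq table of mouse build GRCm38.p6, with 9 start sites among them, and windows from 250 bases before to 50 after each start were searched on both strands. A pair is shown because each holds a site that a MADS-box or GATA factor is known to bind: the Hand2 promoter, a member whose RNA fell, and the Srf promoter, a member whose RNA did not pass the test. Each sequence runs 5′ to 3′ over the 250 bases before the start. In Hand2 (chr8:57320733-57320982, plus strand) the capitals mark the GATA motif AGATAA, here on the opposite strand. In Srf (chr17:46556163-46556412, minus strand) the capitals mark a pair of CArG boxes, the site bound by SRF itself, and then a TATAAA box on the opposite strand.
Hand2: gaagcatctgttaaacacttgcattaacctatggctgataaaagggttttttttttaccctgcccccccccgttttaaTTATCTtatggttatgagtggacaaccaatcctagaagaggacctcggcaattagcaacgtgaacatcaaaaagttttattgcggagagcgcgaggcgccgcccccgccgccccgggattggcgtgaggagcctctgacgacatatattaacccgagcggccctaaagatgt
Srf: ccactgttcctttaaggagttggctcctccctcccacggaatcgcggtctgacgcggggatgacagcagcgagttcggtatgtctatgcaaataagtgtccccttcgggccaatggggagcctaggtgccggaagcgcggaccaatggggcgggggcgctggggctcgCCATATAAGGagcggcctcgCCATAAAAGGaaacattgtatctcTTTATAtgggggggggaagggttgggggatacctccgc
The CArG boxes of Srf began at -82 and -62 from the start, and 1.63% of all 32851 promoters of the same length held a CArG box. The AGATAA motif of Hand2 began at -172, and 11.2% of promoters held that motif. Other forms of the GATA site were not searched and are not marked. The other matches were a MEF2 site at -2 in Mef2a, against 3.19% of promoters, and the T-box core motif AGGTGT at -216 in 1 of 3 Mef2c promoters, against 13.7%. The TATAAA box was found in Srf at -38 and in Mef2c at -107 and -22 in separate promoters, against 13.6% of promoters. A match describes the letters only, and binding was not measured.

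Of the 10 factors, 4 were lower and 0 were higher in knockout hearts by DESeq2 at an adjusted p under 0.05. When libraries were scaled by total counts, 8 were lower and 0 higher. When mitochondrial rRNA was left out of the totals, 1 was lower and 3 were higher. The share of all records called under those scalings is not given, so these counts have no background beside them. No factor was higher at an unadjusted p under 0.05 or by edgeR under the default scaling. Over all 19959 records tested under the default scaling, 15.5% were called lower and 18.2% higher. Among the 10441 records averaging 100 or more normalised counts, a level that all 10 factors exceed, 21.0% were called lower. The median log2 fold change of the factors was -0.24, beside 0.005 for all records tested. It was -0.53 under total counts and 0.19 under totals without mitochondrial rRNA. Tbx5, Hand2 and Gata6 fell so far that every knockout library lay below every wildtype library. That held for 3 of the 10 factors and for 16.4% of all records, and no factor had every knockout library above every wildtype library, against 16.7% of all records.

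**Figure D1:**
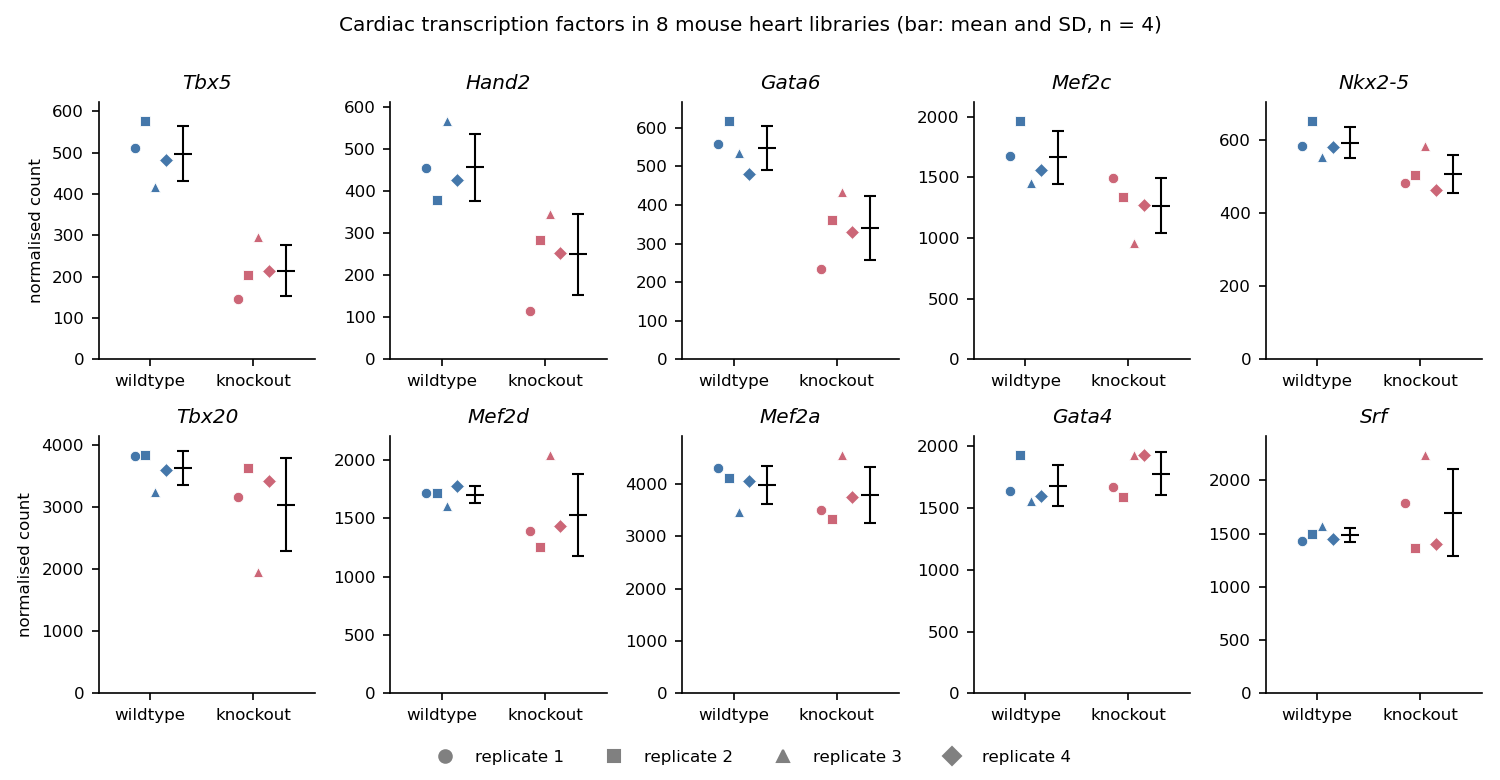
Normalised counts of the 10 factors in each of the 8 libraries (y axis, from 0), grouped by genotype, with marker shape giving the replicate number and the bar the mean and SD of 4 libraries. The 4 knockout points lie below all 4 wildtype points for Tbx5, Hand2 and Gata6, and knockout replicate 3 is the highest knockout point in 8 of the 10 panels and the lowest for Tbx20 and Mef2c.

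Among the T-box factors, Tbx5 fell to 43.2% of its wildtype level. Tbx5 (ENSMUSG00000018263.11, GRCm38 chr5:119832668-119885219, plus strand) had 511.9, 577.6, 418.1 and 482.2 normalised counts in the wildtype hearts and 145.0, 204.5, 295.8 and 212.7 in the knockout hearts, in the order of replicates 1 to 4 that is used throughout. The groups did not overlap, and the highest knockout library was replicate 3. The log2 fold change was -1.21 (SE 0.209, 95% interval -1.62 to -0.80, adjusted p = 8.64e-08), and it stayed between -1.41 and -1.06 and past the threshold when each of the 8 libraries was left out in turn. It was the only factor of the 10 called lower under each scaling tried.

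Tbx20, a T-box factor required in the adult heart muscle cell, was the second most abundant factor by counts after Mef2a. Tbx20 (ENSMUSG00000031965.15, chr9:24718138-24774303, minus strand) had 3822, 3846, 3255 and 3596 normalised counts in wildtype and 3170, 3638, 1953 and 3419 in knockout hearts. The groups overlapped, with knockout replicate 3 far below the other 7 libraries. Its log2 fold change of -0.25 (SE 0.182, interval -0.61 to 0.10, adjusted p = 0.3) did not pass the test, and without knockout replicate 3 it was -0.091 (adjusted p = 0.48).

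Hand2 had 54.5% of its wildtype level. Hand2 (ENSMUSG00000038193.4, chr8:57320983-57324633, plus strand) had 453.5, 379.4, 566.7 and 426.0 normalised counts in wildtype and 115.0, 283.0, 344.6 and 253.0 in knockout hearts. Knockout replicate 1 was the lowest library by far, and the highest knockout library, replicate 3, still lay under the lowest wildtype library. The log2 fold change was -0.88 (SE 0.279, interval -1.42 to -0.33, adjusted p = 0.00716), with a range of -1.07 to -0.64 when single libraries were left out and a highest adjusted p of 0.0447. Under totals without mitochondrial rRNA it was at -0.46 and did not pass (adjusted p = 0.177).

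Of the GATA factors, zinc finger proteins that activate many contractile genes, Gata6 passed the test and Gata4 did not. Gata6 (ENSMUSG00000005836.8, chr18:11052064-11085635, plus strand) had 558.2, 618.5, 534.7 and 480.0 normalised counts in wildtype and 233.2, 361.5, 433.5 and 330.1 in knockout hearts. No knockout library reached the lowest wildtype library, with replicate 1 again lowest and replicate 3 highest. Gata6 fell by 0.69 on the log2 scale (SE 0.186, interval -1.06 to -0.32, adjusted p = 0.00117), to 62.0% of wildtype, and passed the threshold in 8 of 8 fits with 1 library left out. Under totals without mitochondrial rRNA it was at -0.27 and did not pass (adjusted p = 0.217).

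Gata4 (ENSMUSG00000021944.15, chr14:63198922-63271692, minus strand), the GATA factor with the higher level per length, had 1642, 1931, 1559 and 1600 normalised counts in wildtype and 1674, 1589, 1932 and 1929 in knockout hearts. The groups overlapped throughout. Its log2 fold change was 0.08 (SE 0.116, interval -0.14 to 0.31, adjusted p = 0.636), and its sign turned without the length correction and under total-count scaling. The difference between the fold changes of Gata4 and Gata6 was not tested.

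Of the MADS-box factors, only Mef2c passed the test, and narrowly. Mef2c (ENSMUSG00000005583.16, chr13:83504034-83667080, plus strand), the MEF2 gene needed for looping of the embryonic heart and for its right ventricle, had 1672, 1966, 1456 and 1562 normalised counts in wildtype and 1495, 1339, 957.9 and 1267 in knockout hearts. Knockout replicate 1 lay above the lowest wildtype library, and knockout replicate 3 was the lowest of all 8. With a log2 fold change of -0.40 (SE 0.158, interval -0.70 to -0.09, adjusted p = 0.0385) it passed the threshold, but under totals without mitochondrial rRNA it was at 0.037 (adjusted p = 0.892). The call was lost in 6 of 8 fits with 1 library left out, with adjusted p values between 0.0539 and 0.163: those without wildtype replicate 1, 2 or 4 or without knockout replicate 2, 3 or 4.

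Mef2d, the MEF2 protein that relays stress signals in adult heart muscle, and Mef2a, the most abundant of the 10 by counts and per length in wildtype hearts, did not pass the test. Mef2d (ENSMUSG00000001419.17, chr3:88142372-88172086, plus strand) had 1721, 1715, 1606 and 1774 normalised counts in wildtype and 1391, 1256, 2044 and 1433 in knockout hearts. In 3 of 4 knockout libraries Mef2d lay below all wildtype libraries and in replicate 3 above them. Its log2 fold change was -0.15 (SE 0.156, interval -0.46 to 0.15, adjusted p = 0.487), and leaving out knockout replicate 3 gave -0.33 (adjusted p = 0.00112).

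Mef2a (ENSMUSG00000030557.17, chr7:67231163-67372858, minus strand) had 4309, 4105, 3458 and 4052 normalised counts in wildtype and 3492, 3334, 4551 and 3754 in knockout hearts. The groups overlapped, and the highest library of all was again knockout replicate 3. Its value was a log2 fold change of -0.07 (SE 0.128, interval -0.32 to 0.18, adjusted p = 0.71), and -0.18 without knockout replicate 3 (adjusted p = 0.158).

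Srf (ENSMUSG00000015605.5, chr17:46548329-46556175, minus strand) had 1431, 1498, 1572 and 1445 normalised counts in wildtype and 1786, 1362, 2239 and 1399 in knockout hearts. A pair of knockout libraries lay above and a pair below all wildtype libraries. The fitted log2 fold change was 0.19 (SE 0.164, interval -0.13 to 0.51, adjusted p = 0.404), and it was negative under total-count scaling. Leaving out knockout replicate 3 gave 0.027 (adjusted p = 0.889).

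Nkx2-5, the homeodomain factor of the cardiac lineage, did not pass with all libraries in the fit. Nkx2-5 (ENSMUSG00000015579.4, chr17:26838664-26845009, minus strand) had 584.2, 652.2, 552.6 and 580.8 normalised counts in wildtype and 481.4, 502.7, 581.9 and 462.6 in knockout hearts. All knockout libraries but replicate 3 lay below the wildtype libraries. The log2 fold change was -0.22 (SE 0.117, interval -0.46 to 0.01, adjusted p = 0.131). Without knockout replicate 3 it was -0.30 with an adjusted p of 0.0191, and 5 of the 10 factors then passed: Nkx2-5, Mef2d, Tbx5 at -1.41, Hand2 at -1.07 and Gata6 at -0.83. The share of all records called without that library is not given, so this count has no background beside it. In that fit Mef2c was at -0.28 (adjusted p = 0.0539) and Gata4 at 0.041 (adjusted p = 0.823).

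Because mitochondrial rRNA filled more of each knockout library, the fold changes were fitted under 3 scalings. Relative to the default scaling, total counts moved the median of 15754 records averaging 10 or more normalised counts by -0.296 on the log2 scale, and total counts without mitochondrial rRNA moved it by 0.425. Under total counts 8 factors were called lower, the exceptions being Gata4 and Srf. Under totals without mitochondrial rRNA only Tbx5 was called lower, at -0.79 (DESeq2 adjusted p = 0.000212), and Gata4 at 0.51 (adjusted p = 2.84e-05), Mef2a at 0.35 (adjusted p = 0.00492) and Srf at 0.60 (adjusted p = 6.55e-05) were called higher. Hand2 and Gata6 were negative without passing, while Mef2c, Nkx2-5, Tbx20, Mef2d and Mef2a turned positive.

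Relative to the median record of each scaling, the values of a factor differed little. A change of scaling moves all records by nearly the same amount, so near-equal values were fixed in advance and are no test. Tbx5 stood at -1.24 to -1.23 on the log2 scale, Hand2 at -0.90 to -0.89 and Gata6 at -0.72 to -0.71. Mef2c stood at -0.41 in each, Tbx20 at -0.27 to -0.26, Nkx2-5 at -0.25 to -0.24, Mef2d at -0.18 to -0.17 and Mef2a at -0.10 to -0.09. Gata4 was above the median by 0.06 and Srf by 0.15 to 0.17.

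**Figure D2:**
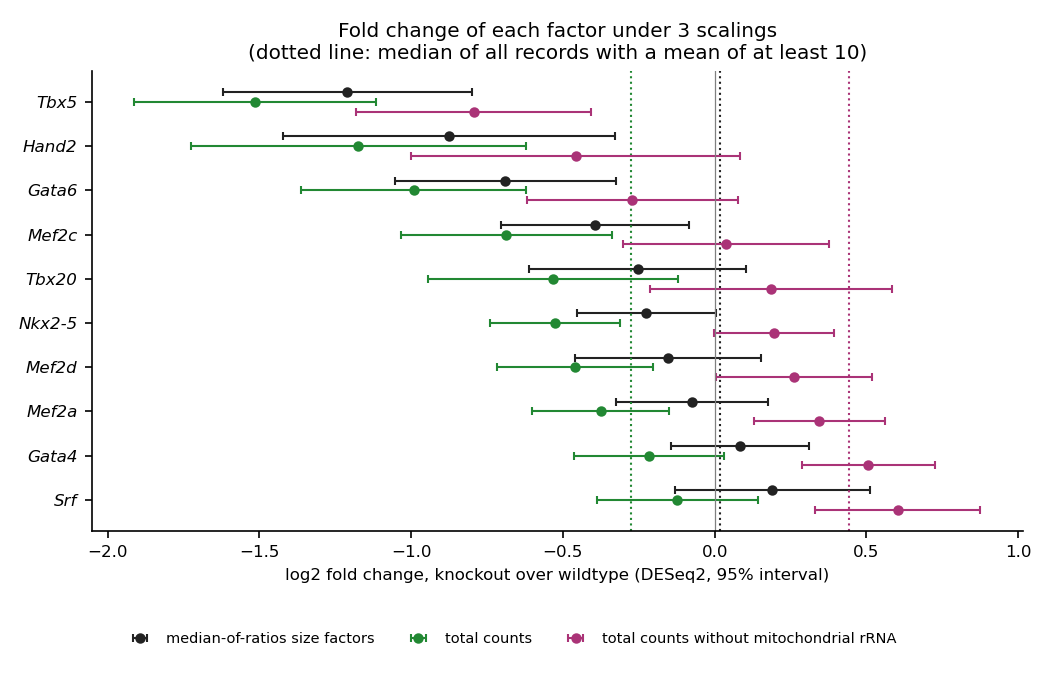
Log2 fold change, knockout over wildtype, of each factor (x axis) with its 95% interval from DESeq2, under median-of-ratios size factors, total counts and total counts without mitochondrial rRNA, with a dotted line at the median of 15754 records under each scaling. The points of a gene shift together with the dotted lines, and Tbx5 stays left of 0 with its whole interval in all 3.

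The order of the factors within a heart was compared per kilobase of effective transcript length, on the scale of normalised counts per kilobase. In wildtype hearts Mef2a was highest at 930.4 ± 85.5 (SD, n = 4). Gata4 at 691.6 ± 69.3, Tbx20 at 624.4 ± 47.1, Mef2c at 565.0 ± 74.5 and Mef2d at 538.9 ± 22.4 followed, and each of these overlapped its neighbour in the order. Nkx2-5 at 435.8 ± 31.1 and Srf at 378.5 ± 16.3 were separate steps. Hand2 at 208.8 ± 36.4, Gata6 at 180.9 ± 18.9 and Tbx5 at 171.8 ± 22.9 were the lowest, and each of these overlapped the next.

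The 3 factors at the bottom of the wildtype order were thus the 3 whose groups did not overlap. In knockout hearts they were at 113.9 ± 44.4 for Hand2, 112.1 ± 27.4 for Gata6 and 74.08 ± 21.4 for Tbx5, in the same order. Mef2a at 884.0 ± 126 and Gata4 at 731.9 ± 72.3 had the first places, and unlike in wildtype their ranges overlapped. Srf rose in rank from 7 to 5 at 432.0 ± 104, and Mef2c dropped from rank 4 to 6 at 429.4 ± 76.6, a level that differed from that of Srf by less than the spread between libraries.

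A gene's mean transcript length, weighted by the abundance of its transcripts, differs between groups where the mix of transcripts does. It could be compared for 6 factors with more than 1 transcript. None of the 6 passed limma over 8488 records, of which 0.978% did, and 1 of the 6 had an unadjusted p under 0.05. That was Gata4, with 6 transcripts: its mean length was 2791, 2570, 2720 and 2780 bases in wildtype and 2568, 2534, 2462 and 2396 bases in knockout hearts. All knockout values lay below all wildtype values, and the log2 ratio was -0.12 (SE 0.034, limma adjusted p = 0.164). For Tbx5, Tbx20, Mef2a, Mef2c and Mef2d the groups overlapped, with adjusted p values of 0.569 to 1.0.

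Records on the opposite strand that overlap a factor or start within 10 kb of its start were found for 7 of the 10 factors. Of these 7 neighbours, 4 averaged 10 or more normalised counts, and all 4 fell, beside 15.5% of all records called lower. The other 3 had means of at most 2.87 and are not described. Reads were assigned by strand, so a factor and its neighbour were counted apart.

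Hand2os1 (ENSMUSG00000100510.6, chr8:57281117-57324233, minus strand) is a long noncoding RNA on the other strand that overlaps Hand2, with its start 3250 bases from that of Hand2 in the annotation used for naming. In RefSeq the pair of start sites are 124 bases apart, so the Hand2 sequence printed above also holds the start of Hand2os1. Hand2os1 had 418.7, 401.6, 448.0 and 440.9 normalised counts in wildtype and 189.1, 303.6, 340.4 and 258.6 in knockout hearts. The groups did not overlap, and the knockout libraries fell in the same order as for Hand2, with replicate 1 lowest, then 4, 2 and 3. Gata6 had that order too, whereas 1010001N08Rik, Gm43050 and Lysmd4, described below, did not share the order of their factors. The log2 fold change was -0.65 (SE 0.178, adjusted p = 0.0014), and under totals without mitochondrial rRNA it was -0.23 (adjusted p = 0.283).

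Gata6 has the noncoding record 1010001N08Rik (ENSMUSG00000097222.1, chr18:10987944-11052567, minus strand), whose start lies 503 bases from that of Gata6. It had 97.24, 80.71, 96.91 and 104.7 normalised counts in wildtype and 36.83, 50.56, 49.39 and 28.67 in knockout hearts. The groups did not overlap, and the log2 fold change was -1.22 (SE 0.247, adjusted p = 7.86e-06). Beside Tbx5, the lincRNA Gm43050 (ENSMUSG00000106795.1, chr5:119828448-119831920, minus strand), starting 748 bases away, had 35.73, 35.66, 25.38 and 15.82 normalised counts in wildtype and 7.427, 4.405, 11.88 and 9.364 in knockout hearts. It too did not overlap between groups, at a log2 fold change of -1.75 (SE 0.479, adjusted p = 0.00136).

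Lysmd4 (ENSMUSG00000043831.12, chr7:67222544-67307330, plus strand) is a protein-coding gene that overlaps the 3′ part of Mef2a, and its start lies 150314 bases from that of Mef2a. It had 308.3, 314.0, 303.4 and 296.3 normalised counts in wildtype and 173.9, 174.3, 201.4 and 140.2 in knockout hearts, with no overlap. It fell by 0.83 on the log2 scale (SE 0.143, adjusted p = 8.56e-08), while Mef2a had -0.07. Each of the 4 neighbour calls was kept in 8 of 8 fits with 1 library left out.

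**Figure D3:**
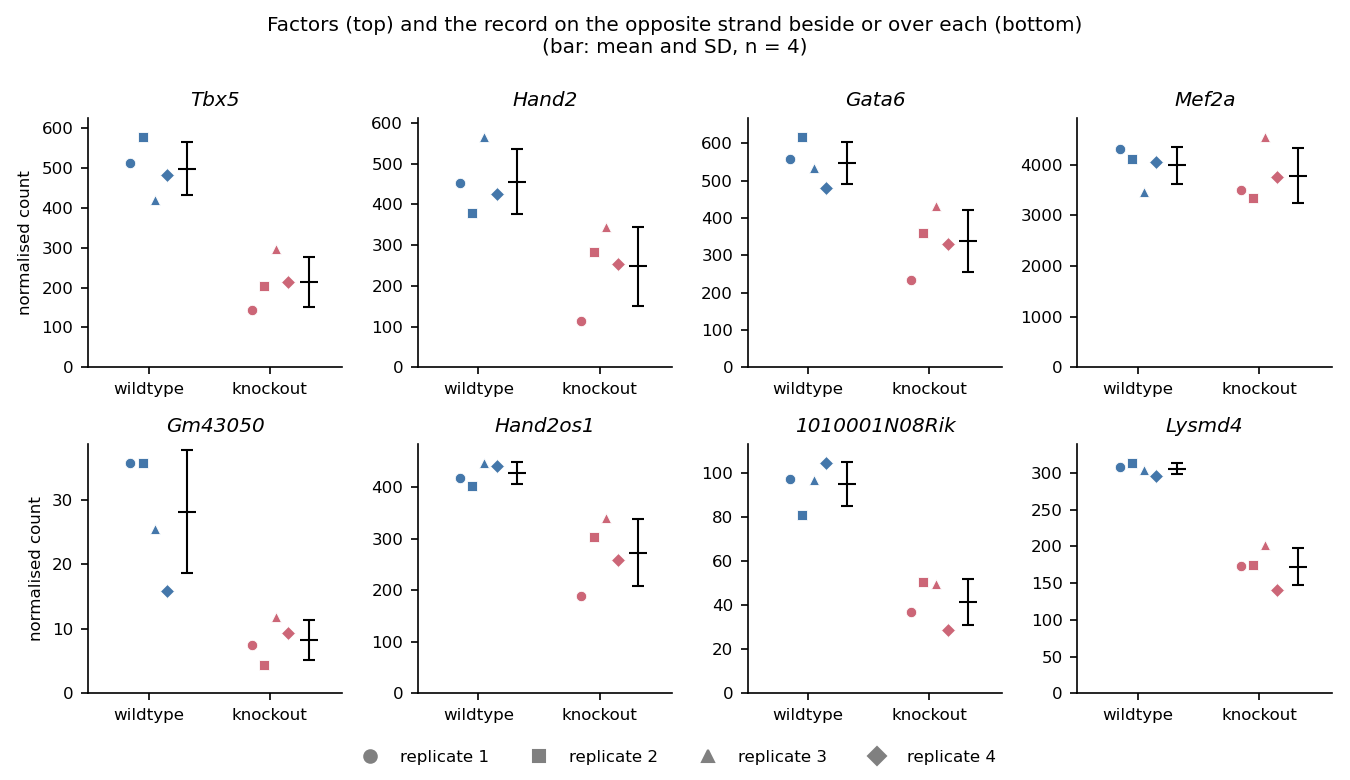
Normalised counts (y axes, from 0) of Tbx5, Hand2, Gata6 and Mef2a in the top row and of the opposite-strand record beside or over each in the bottom row, by genotype and library, with the mean and SD of 4 libraries. The bottom row shows all knockout points below all wildtype points, and the Mef2a panel shows overlapping groups.

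Proteins that act with the 10 factors were described from a list of 24 partners and cofactors. Of the 24, 12 fell and 1 rose, or 50.0% lower beside 15.5% of all records and 21.0% of those averaging 100 or more counts, and 4.17% higher beside 18.2%, with a median log2 fold change of -0.35; the 12 remained lower under total counts, while under totals without mitochondrial rRNA 6 of them kept the call and 1, Nfatc3, changed sign. Hopx, a homeodomain protein without DNA binding that restrains SRF, fell most. Hopx had 2183, 2157, 1769 and 2119 normalised counts in wildtype and 588.5, 428.7, 579.4 and 398.1 in knockout hearts, a log2 fold change of -2.05 (SE 0.156, adjusted p = 4.87e-37).

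Myocd encodes myocardin, the coactivator of SRF in heart and smooth muscle. It had 1851, 1674, 1381 and 1780 normalised counts in wildtype and 676.1, 819.5, 725.5 and 737.8 in knockout hearts (log2 fold change -1.17, SE 0.125, adjusted p = 1.86e-19). The groups lay far apart, whereas those of Srf overlapped. Of the other SRF partners, Mrtfa and Mrtfb, the actin-regulated coactivators, did not pass, nor did the ETS-domain factors Elk3 and Elk4. Elk1 fell by 0.52 on the log2 scale (adjusted p = 0.00149), a call lost under totals without mitochondrial rRNA (adjusted p = 0.697).

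All 4 class IIa histone deacetylases on the list, which bind and repress MEF2 proteins, were lower. That stands beside 15.5% of all records called lower and 21.0% of those averaging 100 or more counts. The log2 fold changes were -1.32 for Hdac9 (SE 0.198, adjusted p = 4.51e-10), -0.94 for Hdac4 (SE 0.149, adjusted p = 5.11e-09), -0.91 for Hdac5 (SE 0.132, adjusted p = 1.17e-10) and -0.43 for Hdac7 (SE 0.172, adjusted p = 0.038), and under totals without mitochondrial rRNA that of Hdac7 was at 0.00. The Hdac7 call was kept in only 2 of 8 fits with 1 library left out, lost without wildtype replicate 1, 2 or 4 or knockout replicate 2, 3 or 4. Hdac9 had 624.5 to 836.6 normalised counts in wildtype and 188.6 to 347.6 in knockout hearts. Hdac4 had 729.3 to 935.7 and 371.1 to 542.1, and Hdac5 had 1402 to 1920 and 809.0 to 1013. None of these 3 overlapped between groups, beside 16.4% of all records with every knockout library below every wildtype library.

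Zfpm2, also called FOG2, is the multi-zinc-finger partner of GATA4. It had 531.6, 492.7, 425.5 and 408.6 normalised counts in wildtype and 262.2, 300.3, 324.0 and 267.1 in knockout hearts (log2 fold change -0.69, SE 0.14, adjusted p = 8.65e-06). Its paralog Zfpm1 did not pass. The calcineurin-regulated partners Nfatc2 and Nfatc3 were at -1.08 (adjusted p = 0.000454) and -0.36 (adjusted p = 0.00156). Camta2, a coactivator of NKX2-5, was at -0.70 (adjusted p = 0.00184), and the acetyltransferase Ep300 was at -0.50 (adjusted p = 0.00254). Under totals without mitochondrial rRNA the calls of Zfpm2, Nfatc3, Camta2 and Ep300 were lost, and that of Nfatc2 was kept.

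The 1 partner that rose was Wwtr1, which encodes TAZ, a coactivator for TEAD and TBX5. It had 1506, 1521, 1501 and 1520 normalised counts in wildtype and 2313, 2367, 2781 and 2657 in knockout hearts, a log2 fold change of 0.74 (SE 0.0918, adjusted p = 1.78e-14), positive under all 3 scalings. The paralog Yap1 and their DNA-binding partner Tead1 did not pass. The remaining partners that did not pass were Smyd1, Cabin1, Nfatc1 and Nfatc4.

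**Figure D4:**
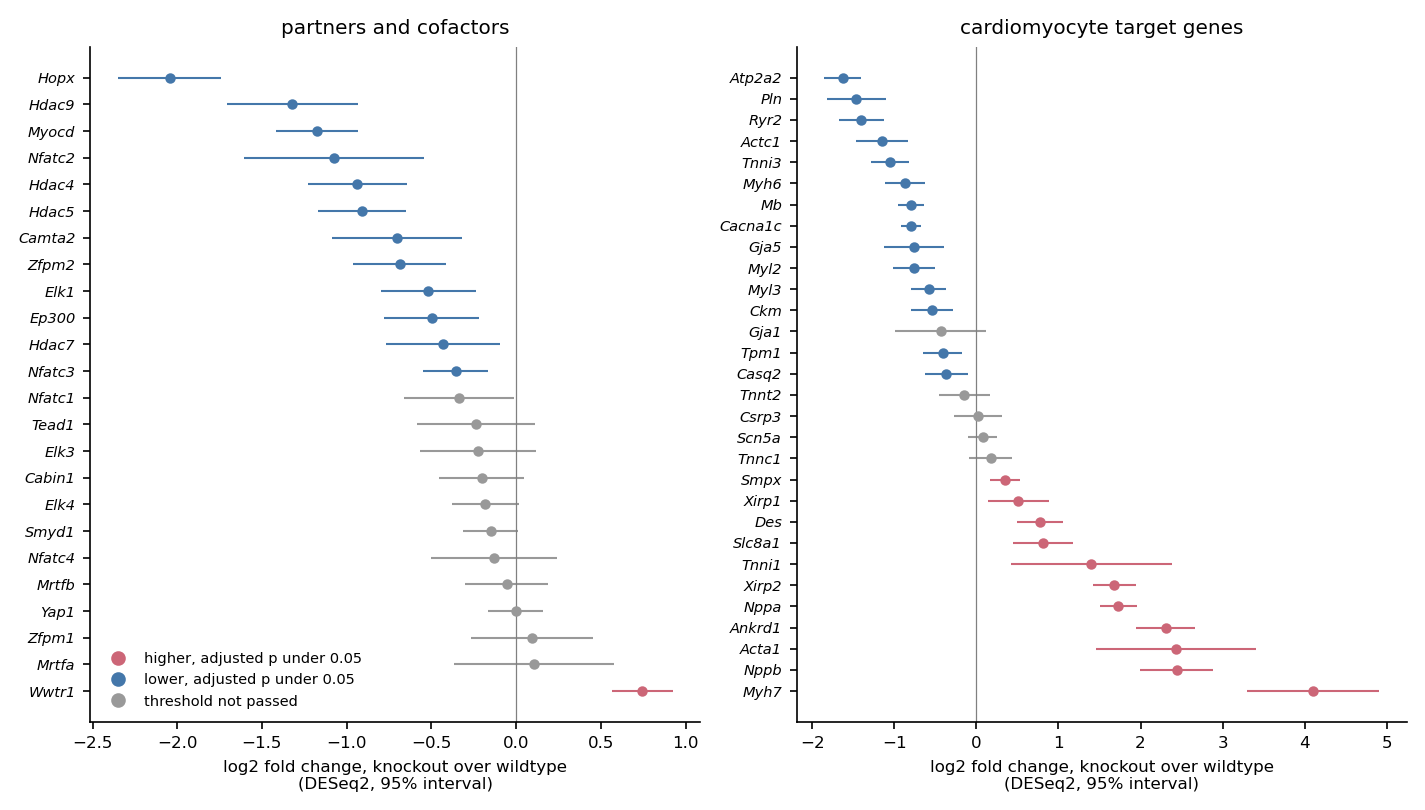
Log2 fold change, knockout over wildtype, with its 95% interval from DESeq2 (x axes), of 24 partners and cofactors of the factors and of 30 heart muscle genes they are known to bind or regulate, each coloured by whether its adjusted p was under 0.05. In the left panel 12 genes are called lower and Wwtr1 higher, and in the right panel 14 are called lower and 11 higher.

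Of 23 other heart transcription factors, 20 could be tested. Of these 7 fell and 1 rose, or 35.0% lower beside 15.5% of all records and 5.0% higher beside 18.2%, with a median log2 fold change of -0.44; under totals without mitochondrial rRNA 1 of the 7, Irx4, kept the call. Irx4, a homeodomain factor of the ventricles, fell by 0.95 on the log2 scale (SE 0.167, adjusted p = 1.42e-07), from 385.3 to 504.2 normalised counts in wildtype to 180.1 to 269.7 in knockout hearts. Tbx3, the T-box repressor of the conduction system, was at -0.71 (adjusted p = 0.0155) and Prdm16 at -0.65 (adjusted p = 0.047). Both overlapped between groups, and their calls were kept in 4 and 3 of 8 fits with 1 library left out.

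The paralogs of the factors gave few reads. Hand1 had 0 or 1 read in each library and Gata5 had 10, 12, 7 and 5 reads in wildtype and 3, 3, 1 and 7 in knockout hearts (adjusted p = 0.265). Mef2b had 1, 0, 1 and 2 reads in wildtype and 5, 7, 15 and 5 in knockout hearts. It passed DESeq2 (adjusted p = 0.00559), but not without knockout replicate 3, and edgeR and a filter of 10 counts in 4 libraries gave no factor of this list as higher.

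Heart muscle genes that the 10 factors are known to bind or regulate moved in both directions. Of 30, 14 fell and 11 rose, or 46.7% lower beside 15.5% of all records and 36.7% higher beside 18.2%; under totals without mitochondrial rRNA 9 of the 14 kept the call and 2 changed sign, and under total counts 8 of the 11 kept it. The genes with the largest changes were Myh7, the slow myosin heavy chain, Nppb, the B-type natriuretic peptide, and Acta1, skeletal actin. Myh7 had 3923, 3805, 2505 and 1425 normalised counts in wildtype and 24980, 43620, 70560 and 60830 in knockout hearts (log2 fold change 4.10, SE 0.412, adjusted p = 1.29e-21). Nppb rose by 2.44 (SE 0.227, adjusted p = 3.66e-25) and Acta1 by 2.43 (SE 0.498, adjusted p = 9.4e-06), both positive under all 3 scalings.

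Atp2a2, the calcium pump of the sarcoplasmic reticulum, fell most of the 30, at -1.63 (SE 0.113, adjusted p = 8.96e-45), and was named after its values were seen. Among those that are also heart muscle markers, Pln, which restrains that pump, was at -1.46 (SE 0.182, adjusted p = 2.55e-14) and Ryr2, the calcium release channel, at -1.40 (SE 0.14, adjusted p = 1.02e-21). Myh6, the fast myosin heavy chain of the adult mouse heart, was at -0.87 (SE 0.125, adjusted p = 7.12e-11). All 4 were called lower under each scaling. Of the 7 heart muscle markers 4 fell and 1, Myom2 at 0.85, rose, beside 15.5% of all records called lower and 18.2% called higher, and Tnnt2 and Actn2 did not pass.

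A further list held serum response and cytoskeletal genes that SRF is known to control, smooth muscle genes among them. Of 17, 4 rose and 1 fell, or 23.5% higher beside 18.2% of all records and 5.88% lower beside 15.5%, with a median log2 fold change of 0.25. Under total counts 1 of the 4 kept the call, and 4 genes were lower without knockout replicate 1. Ccn2 rose from 814.4 to 984.5 normalised counts in wildtype to 4431 to 6524 in knockout hearts (log2 fold change 2.50, SE 0.141, adjusted p = 6.88e-68). Ccn1 was at 0.82 (adjusted p = 0.00774). Lmod1, a smooth muscle actin nucleator, was at -1.13 (SE 0.19, adjusted p = 3.66e-08).

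Some markers of other cells of the heart also differed between the groups, beside 15.5% of all records called lower and 18.2% called higher. In whole tissue, fewer cells of a type and less RNA per cell cannot be told apart. Of 4 atrial markers 2 fell, Myl7 at -3.54 (adjusted p = 1.74e-08) and Sln at -2.84 (adjusted p = 1.51e-17), and the summed normalised counts of the 4 were 9980 to 12040 in wildtype and 4754, 6012, 1268 and 3233 in the knockout hearts. Knockout replicate 3 had the lowest atrial sum. It was the highest knockout library for 8 factors, with Tbx5, Hand2 and Gata6 among them, and replicate 1 was the lowest for these. Because replicate 3 also stood apart from the other knockout libraries in the principal components, this order cannot separate atrial tissue from its other differences. The part of atrial tissue in the difference between groups was not tested.

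Of 7 smooth muscle and pericyte markers 2 fell, Myh11 and Acta2 (both at -1.16), with sums of 18370 to 19720 in wildtype and 13500 to 17370 in knockout hearts. Of 8 macrophage markers 6 rose, with sums of 4445 to 6037 and 4818 to 11550, but only 2 of the 6 calls were kept under total counts and 3 of the 6 in every fit with 1 library left out. The largest changes among these were 1.42 for Cd68, 1.06 for Cd163 and 0.80 for C1qb, and the last was not called under total counts or without knockout replicate 2. Of 7 fibroblast markers 2 rose, Col1a1 at 1.48 and Col1a2 at 1.29, with sums of 13140 to 13610 and 13030 to 25120. None of 7 endothelial markers passed DESeq2, with sums of 15300 to 16880 and 10810 to 19160, nor did any of 5 erythroid markers, with sums of 20880 to 27050 and 15230 to 53860. Of 6 epicardial markers 2 rose, with sums over the 6 of 120.1 to 172.6 in wildtype and 151.1 to 533.8 in knockout hearts, and of 5 nerve markers tested 2 fell, where the sums over all 6 listed were 150.9 to 179.4 in wildtype and 68.35 to 144.6 in knockout hearts. No list had a marker at 0 in every library. The part of these cells in the values of the 10 factors was not tested.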

How the data were processed

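RNA from 8 whole hearts was sequenced as random-primed, paired-end libraries after depletion of cytoplasmic rRNA, and samples were grouped by their titles. The deposited expected counts are the authors' output of RSEM 1.2.31 with bowtie2, which counted by strand against GENCODE M13 transcripts plus their own mitochondrial sequences. The deposited gene lengths and effective lengths, other values in bases, are abundance-weighted means over transcripts. A series table of the authors' own comparison, holding fold changes and p values, was not used, nor were 8 columns of normalised counts.

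Expected counts were rounded and fitted with DESeq2 1.42.0 (R 4.3.3) to the 8 libraries together, with genotype as the sole covariate and effective lengths as an offset. Adjustment was by Benjamini-Hochberg over the 19959 records that passed the low-count filter of DESeq2, at a threshold of 0.05. Alternatives used edgeR 4.0.16, and lengths were tested with limma 3.58.1 on records averaging 100 or more counts. The scripts were tested on simulated data, where the share of wrong calls was well above the nominal threshold for each of the 3 tools. The simulated counts took their spread from the wildtype libraries only, so their share of wrong calls need not hold for these data. Symbols came from GENCODE M21 (50339 of 50599 records named). Each group holds 4 separate mice. Each p value sets the difference between the groups against the spread between mice, as estimated with information shared across records.

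The members and lists were chosen with earlier results of these data known. Lrpprc, all members, neighbours with a mean of at least 10, partners past the threshold and, in each other list, the 3 largest changes past the threshold at a mean of at least 100 were named, with Hand1, Gata5 and Mef2b as paralogs.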

Additional observations from a re-analysis of the deposited data

Results flagged for a closer look

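In 116 groups of 4 libraries, 8 values lay far from the other 3 of their group by Dixon's criterion, where chance gives about 5.8. Among the factors themselves there was 1: the mean transcript length of Mef2d was 3047 bases in wildtype replicate 4 and 3286 to 3323 in the other wildtype libraries. No normalised count of the 10 factors was flagged.

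Knockout replicate 3 had 37040 normalised counts of Pln, against 20590 to 22640 in the other knockout libraries, and 188.6 of Hdac9, against 322.5 to 347.6. Knockout replicate 4 had 1351 normalised counts of Ep300, against 954.5 to 992.7. Knockout replicate 2 had 504.3 of Lrpprc, against 597.4 to 605.4, and wildtype replicate 3 had 1769 of Hopx, against 2119 to 2183. The remaining pair are single reads of Hand1, 0.6313 normalised counts in wildtype replicate 4 and 0.9079 in knockout replicate 2, with 0 in the other libraries.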

How the results depend on the processing

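The counts of factors called lower (4) and higher (0) were the same with edgeR and TMM, without the length offset, with a filter of 10 counts in 4 libraries and with size factors from nuclear records. Scaling changed them. Under total-count scaling 8 factors were lower and 8 without overlap between groups, their median was -0.53, Gata4 was at -0.22 and Srf at -0.12, 20 partners were lower, and 1 serum response gene was higher and 3 lower. Under totals without mitochondrial rRNA 1 factor was lower and 3 higher, their median was 0.19, and Nkx2-5 was at 0.20, Tbx20 at 0.19, Mef2a at 0.35, Mef2c at 0.037 and Mef2d at 0.26. The same scaling gave 6 partners higher and 6 lower, 4 other heart factors higher and 1 lower, 9 target genes lower and 8 serum response genes higher. These follow the shift of the median record, and the share of all records called under each of these scalings is not given. Without the length offset Gata4 was at -0.049. The 1 other heart factor called higher became 0 with edgeR and with the filter on low counts.

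With each library left out in turn, 3 to 5 factors were lower (5 without knockout replicate 3), and 3 to 5 were without overlap (5 without knockout replicate 3). The shares of all records in these fits are not given. Other heart factors ranged from 0 to 1 higher (0 without knockout replicate 3) and from 4 to 7 lower (4 without wildtype replicate 2), and serum response genes from 1 to 4 lower (4 without knockout replicate 1 and 2 without knockout replicate 3 or 4) and from 3 to 6 higher.

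Libraries sharing a number did not deviate together (r between -0.052 and 0.086), and the numbers share only a name. With a replicate block 4 factors were lower and 0 higher, with Tbx5 at -1.24, and no call of a factor changed. The count without overlap was not made with edgeR, the filter or the block, and of these only the block leaves the normalised counts unchanged.

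With 4 hearts a group, the 6 factors that did not pass had standard errors of 0.116 to 0.182 on the log2 scale, and values within their 95% intervals are not excluded. Without measured cell numbers or an external RNA standard, no scaling fixes absolute levels.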
